A study of Homo sapiens with 60 samples.

Results

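The comparison described here is that of A549 cells exposed for 24 h to 500 µg/mL against 20 µg/mL of the 70% ethanol extract of Panax Ginseng. A549 is an established human lung adenocarcinoma line. The libraries were chosen by their treatment labels alone, 3 at each of these doses, so 6 of the 60 libraries of the series, and the 3 libraries at 100 µg/mL are shown for the order of the levels over dose. Replicates 1 to 3 are called H1 to H3 at 500 µg/mL, M1 to M3 at 100 µg/mL and L1 to L3 at 20 µg/mL. The whole series holds 25 groups, made of a vehicle group and other herbal extracts at 3 doses, all in A549 cells. The 3 vehicle libraries received DMSO only, given as 0.1% in the library labels and as 2% in the design text, and the sources used here do not say how much DMSO the extract-treated cells received. The design text also says that lower doses, set by an extract's IC20, replaced these where that value was under 500 µg/mL, while the Ginseng labels give 500, 100 and 20 µg/mL. Nothing in the labels says that replicates are separate cultures, and the p-values therefore measure no more than the scatter among libraries, which may be technical. In the main fit that scatter was estimated over all 60 libraries, those of the other extracts included. The cells are 1 line, and the RNA was read in bulk, so fewer cells of a kind and less RNA per cell cannot be told apart.

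Ginseng root is known for its ginsenosides, saponins built on a triterpene skeleton that resembles a sterol. Animal cells sense sterols in the membrane of the endoplasmic reticulum. When sterols are low, SREBP2, encoded by SREBF2, is carried to the Golgi, cleaved and sent to the nucleus, where it switches on the enzymes that build cholesterol from acetyl-CoA. When sterols are plentiful, INSIG proteins hold the precursor back, and oxidised sterols activate the LXR receptors, which switch on export through ABCA1. A549 cells, although taken from lung, also transcribe fibrinogen and other plasma proteins that are best known as products of the liver.

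The 9 Ginseng libraries held 21380858 to 27211982 expected counts each, and the 60 libraries held 18602484 to 29764358. Levels are CPM, counts scaled to an equal library total with TMM factors, and changes are log2 of 500 over 20 µg/mL with the standard error (SE) of the fit. All 7 epithelial markers were present in the 9 libraries, with the keratin KRT8 at 3378 to 3679 CPM and EPCAM at 16.8 to 20.3 CPM. The 12 markers of blood, endothelial and mesenchymal cells summed to 35.4 to 42.0 CPM at 500 µg/mL and 31.7 to 37.9 CPM at 20 µg/mL. PTPRC, the pan-leukocyte marker, had 0 counts in all 9 libraries, but other members of the 12 were present. Over the 9 libraries CD68, the highest of the 12, was at 14.88 to 28 CPM, COL3A1 at 7.341 to 9.532 CPM and DCN at 3.003 to 5.25 CPM. Within a Ginseng dose, no pair of libraries lay within sampling noise (chi-square per degree of freedom 3.9 to 36.6, the highest for L2 and L3). The surfactant gene SFTPC, which defines alveolar type II cells, had at most 4 counts in any of the 9 libraries, and SFTPB was at 0.31 to 0.72 CPM. Other genes of the surfactant and mucin list were present, SFTPD at 6.64 to 9.49 CPM, ABCA3 at 24.6 to 30.8 CPM, LPCAT1 at 81.2 to 100.3 CPM and MUC5B at 204 to 260 CPM. The epithelial markers summed to 8759 to 8994 CPM at 500 µg/mL and 8871 to 9369 CPM at 20 µg/mL, but to 11110 to 11580 CPM in the vehicle libraries, which stood apart in this respect.

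Between 20 and 500 µg/mL, 214 of 17764 genes tested passed the threshold (edgeR quasi-likelihood test, Benjamini-Hochberg adjusted p under 0.05), 98 higher and 116 lower at 500 µg/mL. These are 1.2%, 0.552% and 0.653% of the genes tested. The changes were small. The median log2 change was 0.26 among the called rises and -0.32 among the called falls. Among the 202 called genes at 5 CPM or more in either group, 2 rose and 5 fell by at least 1.5-fold and 0 changed 2-fold. The 3 libraries at 500 µg/mL did not overlap those at 20 µg/mL for 211 of the 214 genes, against 12.6% of all genes tested. Because the 214 were called for a gap between these doses, that count is a description. The spread of single genes was correspondingly narrow, with a median SD of log2 CPM of 0.0937 at 500 µg/mL and 0.129 at 20 µg/mL. With a mean for each dose as the only terms, the number of calls was 54 when the 9 Ginseng libraries alone were fitted and 21 when only the 6 compared libraries were. It was also lower without H1 (94), H3 (133) or L2 (111). Of the 21 genes in the 6-library fit, 19 are among the 214, and 59 of the 214 were called whichever 1 of the 6 libraries was left out.

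Genes of cholesterol synthesis and uptake gave the most called members of the 23 lists examined. Of 25 listed, all tested, 16 rose and 0 fell, against 0.552% of all genes that rose. The median change over the 25 was 0.24 on the log2 scale, against 0.005 over all genes tested. Of the 25 values 23 were positive, against 9221 of all 17764. For 19 of the 25 every library at 500 µg/mL lay above every library at 20 µg/mL, while 12.6% of all genes tested did not overlap in either direction. The list was written with earlier results of these data known, so its direction is a description. Of the 16 rises, 10 were called in the fit of the 9 Ginseng libraries and 5 in the fit of 6 (ACAT2, FDPS, SQLE, EBP and DHCR7).

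The stretches before the starts of these genes were searched for 2 sequences that the choice of members did not use. SREBP2 acts at many of its targets together with NF-Y, a factor that binds the CCAAT box. RefSeq promoter entries on GRCh38.p14 were found for 18 of the 25 genes, and 16 of the 18 (88.9%) held CCAAT on either strand within 250 bases before an annotated start. The share was 37% over the 27305 genes with an entry and 40.8% over the 12024 of them that were tested here. It was also 72.7% on the liver-type list described further on, 52.2% on the coagulation and complement list, 57.1% of all called rises and 37.5% of all called falls with an entry. The 16 members with the box include MVK, MVD, TM7SF2, HSD17B7, STARD4 and SREBF2, which did not pass. The members with an entry but no box were CYP51A1, which rose, and PMVK, which did not pass. The box thus did not separate members that rose from those that did not. The letters TCACNCCAC, a form of the SREBP binding sequence, were found in 1 of the 18, SREBF2 itself, and in 1.09% of all genes with an entry. A match is a description of these letters and not a measured site. The stretches before the starts of a regulator that rose (INSIG1), of 3 enzymes that rose (MSMO1, NSDHL and LSS) and of SREBF2 are shown for this reason, cut where GENCODE 29 places the gene, with the CCAAT box (read as ATTGG on the other strand) in capitals, or the SREBP sequence for SREBF2. In NSDHL a CCAAT box on each strand overlaps in 1 stretch.
INSIG1 (chr7:155297628-155297775, plus strand): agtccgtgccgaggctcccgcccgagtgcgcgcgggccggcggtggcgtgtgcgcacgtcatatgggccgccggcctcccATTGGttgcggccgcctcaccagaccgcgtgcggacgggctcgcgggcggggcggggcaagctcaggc
MSMO1 (chr4:165327419-165327622, plus strand): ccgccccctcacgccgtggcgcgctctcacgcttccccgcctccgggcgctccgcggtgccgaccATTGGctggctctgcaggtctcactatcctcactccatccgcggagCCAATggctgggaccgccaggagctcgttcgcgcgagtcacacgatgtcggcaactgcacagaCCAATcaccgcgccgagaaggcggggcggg
NSDHL (chrX:152830813-152830966, plus strand): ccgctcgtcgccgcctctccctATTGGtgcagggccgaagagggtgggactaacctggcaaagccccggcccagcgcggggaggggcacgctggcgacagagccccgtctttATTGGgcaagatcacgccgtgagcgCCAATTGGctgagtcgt
LSS (chr21:46228825-46229024, minus strand): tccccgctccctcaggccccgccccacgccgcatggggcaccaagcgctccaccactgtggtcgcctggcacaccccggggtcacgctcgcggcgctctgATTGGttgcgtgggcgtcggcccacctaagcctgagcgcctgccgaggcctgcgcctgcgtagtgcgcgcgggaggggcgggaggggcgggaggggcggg
SREBF2 (chr22:41832855-41833078, plus strand): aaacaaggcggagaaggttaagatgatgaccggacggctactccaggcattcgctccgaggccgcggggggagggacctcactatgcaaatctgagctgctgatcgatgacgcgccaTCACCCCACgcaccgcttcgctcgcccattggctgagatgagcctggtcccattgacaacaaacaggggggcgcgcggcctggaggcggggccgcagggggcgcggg

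The first step toward the pathway, joining acetyl units, is carried out by ACAT2 (ENSG00000120437, chromosome 6, 159760328 to 159779055 on GRCh38). ACAT2 stood at 49.0, 49.3 and 48.4 CPM at 500 µg/mL, 37.6, 40.3 and 40.2 CPM at 100 µg/mL and 37.1, 39.0 and 37.9 CPM at 20 µg/mL. All 3 libraries at 500 µg/mL were above the other 6, while those at 100 and 20 µg/mL overlapped. The rise was 0.36 ± 0.05 (edgeR adjusted p = 4.19e-05). The next enzyme is HMGCS1, which makes HMG-CoA. It was at 244, 233 and 238 CPM against 195, 204 and 208 CPM and rose by 0.24 ± 0.05. Its groups did not overlap. HMGCS1 was not called without H1 or L1 (edgeR adjusted p = 0.0677 and 0.0727).

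The mevalonate kinases and the decarboxylase that follow did not pass. MVK changed by 0.14 ± 0.06, PMVK by -0.07 ± 0.09 and MVD by 0.24 ± 0.07 (edgeR adjusted p = 0.448, 0.894 and 0.0626). The isoprenoid steps after them did. IDI1, the isomerase of isopentenyl diphosphate, rose by 0.28 ± 0.07, although this call was lost without H1, H2, H3 or L2 (edgeR adjusted p up to 0.139). FDPS (ENSG00000160752, chromosome 1, 155308748 to 155320666), which makes farnesyl diphosphate, stood at 152, 156 and 154 CPM at 500 µg/mL, 133, 128 and 127 CPM at 100 µg/mL and 121, 125 and 121 CPM at 20 µg/mL. The groups at the 3 doses followed the order of dose without overlap. FDPS had the smallest adjusted p of the list, with a rise of 0.33 ± 0.04 (edgeR adjusted p = 6.06e-07).

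The committed sterol branch begins with FDFT1, squalene synthase, and SQLE, squalene epoxidase. FDFT1 was at 207, 203 and 202 CPM against 176, 161 and 177 CPM and rose by 0.25 ± 0.04. SQLE was at 205, 201 and 204 CPM at 500 µg/mL, 173, 163 and 172 CPM at 100 µg/mL and 164, 157 and 169 CPM at 20 µg/mL, and rose by 0.32 ± 0.04. For SQLE the libraries at 100 and 20 µg/mL overlapped and those at 500 µg/mL stood above both. LSS, which closes the sterol ring, rose by 0.23 ± 0.06, and its call was lost without H1, H2, H3 or L3 (edgeR adjusted p up to 0.243).

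Of the later enzymes, which turn lanosterol into cholesterol, 6 rose. CYP51A1, the demethylase that azole drugs inhibit in fungi, rose by 0.28 ± 0.06. EBP, a sterol isomerase, was at 98.3, 98.7 and 96.9 CPM against 81.3, 77.4 and 78.1 CPM, without overlap, and rose by 0.31 ± 0.05. DHCR7, the last reductase of one branch, rose by 0.31 ± 0.05. MSMO1 (0.30 ± 0.07), NSDHL (0.23 ± 0.05) and SC5D (0.25 ± 0.06) rose as well. These 3 calls were each lost without 1 or more libraries, MSMO1 without H1, H2 or L1, NSDHL without H1 or L2, and SC5D without H3, L1 or L2 (edgeR adjusted p up to 0.158, 0.133 and 0.371). TM7SF2 (0.18 ± 0.07) and HSD17B7 (0.16 ± 0.09) did not pass.

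Feedback genes of the list were measured as well. INSIG1 (ENSG00000186480, chromosome 7, 155297776 to 155310235), the sterol-sensing retention protein, was at 64.6, 65.9 and 66.6 CPM at 500 µg/mL, 52.9, 56.1 and 57.3 CPM at 100 µg/mL and 51.1, 53.0 and 54.8 CPM at 20 µg/mL. Its rise was 0.31 ± 0.04 (edgeR adjusted p = 1.11e-05), and the vehicle libraries, at 75.8, 75.8 and 76.1 CPM, lay above all 9. The sterol carrier STARD4 and SREBF2 itself did not pass (0.19 ± 0.08 and 0.07 ± 0.04).

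**Figure D1:**
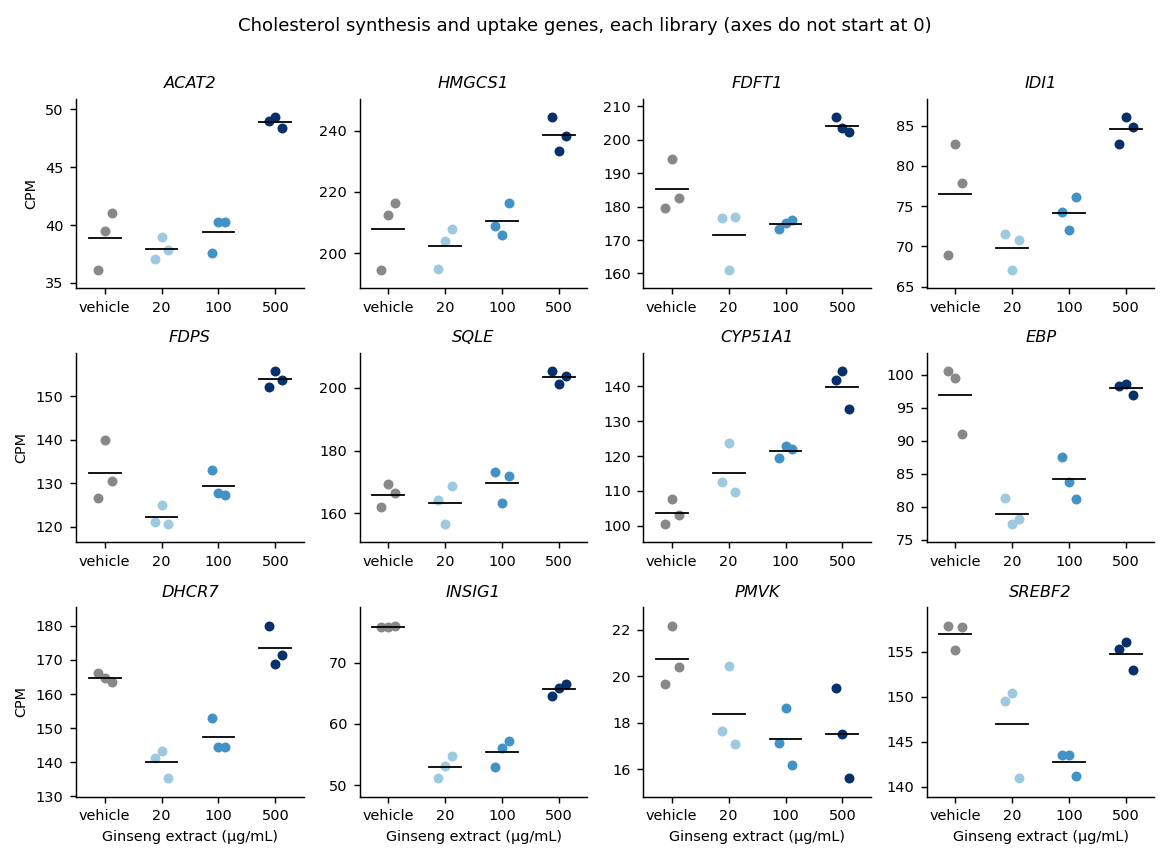
CPM of 12 genes of the cholesterol list in each library (points) with the group mean (line), for vehicle and for Ginseng extract at 20, 100 and 500 µg/mL, 3 libraries each. For 11 genes the libraries at 500 µg/mL lie above those at 20 µg/mL, SREBF2 among them although it did not pass the test, and for PMVK they overlap, while the place of the vehicle differs from gene to gene, above all Ginseng libraries for INSIG1 and below them for CYP51A1.

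Other lipid genes were on 2 further lists. Of all genes tested, 0.552% rose and 0.653% fell. Of 12 fatty acid genes tested, 2 rose, with a list median of 0.11 on the log2 scale. SCD, which makes monounsaturated fatty acids, rose by 0.19 ± 0.04 and FADS2, a desaturase of polyunsaturated fatty acids, by 0.19 ± 0.04. The FADS2 call was lost without L3 (edgeR adjusted p = 0.0534). Fatty acid synthase itself, FASN, changed by -0.01. On the side of export, 1 of 11 LXR-related genes rose and 1 fell. ABCA1 (ENSG00000165029, chromosome 9, 104781002 to 104928237), the transporter that loads cholesterol onto apolipoprotein A-I, was at 6.55, 5.77 and 7.14 CPM at 500 µg/mL, 8.01, 8.90 and 8.76 CPM at 100 µg/mL and 9.00, 9.87 and 8.80 CPM at 20 µg/mL. Its libraries at 500 µg/mL were all below the other 6, and the fall was -0.52 ± 0.09 (edgeR adjusted p = 0.000625). NPC1, which moves cholesterol out of lysosomes, rose by 0.20 ± 0.05, and this call was lost when any 1 of the 6 libraries was left out (edgeR adjusted p from 0.0543 without L3 to 0.204 without H1).

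Genes for plasma proteins gave the most falls of the lists examined. Of 27 coagulation and complement genes tested, 6 fell and 1 rose, against 0.653% and 0.552% of all genes, with a median of -0.13 on the log2 scale. For 15 of the 27 every library at 500 µg/mL lay below every library at 20 µg/mL. Over all genes tested 12.6% did not overlap, both directions counted together. Of 13 other liver-type secreted proteins tested, 5 fell and 0 rose, with a median of -0.45. All 13 values were below 0, against 8510 of all 17764 genes tested. In the fit of only 6 libraries 2 of these 11 falls were called (KNG1 and C5), and in the fit of the 9 Ginseng libraries 7 were. The 5 on the liver-type list became 1 without H2, 2 without H1 or H3, and 3 without L2 or L3. The defining liver genes ALB, AFP, APOA2 and TTR were below the filter on low counts.

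The promoters of 2 members that fell are shown because both hold a sequence of HNF1, a factor known for driving liver genes. The letters GTTAATNAT, part of the palindrome that HNF1 binds, were searched on either strand within 250 bases before a start. They were found in 4 of the 23 coagulation and complement genes with an entry (17.4%: FGA, PLG, C4BPA and C5). Of these 4, FGA and C5 fell, and PLG (0.19 ± 0.35) and C4BPA (-0.37 ± 0.12) did not pass. On the liver-type list they were in 2 of 11 genes with an entry (18.2%), ALB and AFP, neither of them tested. The share was 3.41% of the 88 called falls, 2.6% of the 77 called rises and 0.879% of all genes with an entry. In FGA the match overlaps a CCAAT box, whose last letters it shares. The matches, read here on the other strand, are in capitals.
FGA (chr4:154590767-154590992, minus strand): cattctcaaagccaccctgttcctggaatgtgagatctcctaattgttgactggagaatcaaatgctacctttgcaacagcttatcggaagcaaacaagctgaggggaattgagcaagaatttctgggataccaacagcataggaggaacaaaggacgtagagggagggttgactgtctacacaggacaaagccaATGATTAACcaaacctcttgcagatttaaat
C5 (chr9:121050277-121050525, minus strand): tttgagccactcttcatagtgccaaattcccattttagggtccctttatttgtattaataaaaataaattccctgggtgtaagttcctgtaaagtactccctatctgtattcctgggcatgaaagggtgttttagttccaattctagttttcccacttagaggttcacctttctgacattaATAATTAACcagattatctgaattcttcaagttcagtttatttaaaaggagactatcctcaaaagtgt

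KNG1 (ENSG00000113889, chromosome 3, 186717276 to 186744410), the precursor of bradykinin, fell most of the 2 lists among genes above 5 CPM. It was at 10.9, 9.24 and 11.1 CPM at 500 µg/mL, 13.2, 15.5 and 17.1 CPM at 100 µg/mL and 17.1, 14.9 and 18.9 CPM at 20 µg/mL. The libraries at 500 µg/mL lay below all others, and the fall was -0.71 ± 0.10 (edgeR adjusted p = 4.19e-05). C5 (ENSG00000106804, chromosome 9, 120952335 to 121050276), the complement component cleaved by the C5 convertase, was at 110, 114 and 122 CPM at 500 µg/mL, 129, 141 and 139 CPM at 100 µg/mL and 147, 144 and 148 CPM at 20 µg/mL. The 3 doses did not overlap, and the fall was -0.34 ± 0.05 (edgeR adjusted p = 0.000108). Of the vehicle libraries, at 94.4, 92.9 and 112 CPM, 2 lay below all 9 and 1 within the range at 500 µg/mL. FGA (ENSG00000171560, chromosome 4, 154583126 to 154590766), the alpha chain of fibrinogen, was at 863, 887 and 898 CPM against 1020, 1071 and 1055 CPM and fell by 0.25 ± 0.04, and the gamma chain FGG fell by 0.22 ± 0.06, a call lost without H1, H2 or L3 (edgeR adjusted p up to 0.275). The beta chain FGB, at 844 against 921 CPM on average, did not pass (edgeR adjusted p = 0.145).

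The complement regulator CFI (-0.36 ± 0.07) also fell. On the liver-type list the falls were HP, haptoglobin (-0.72 ± 0.13), HPX, hemopexin (-0.72 ± 0.16), APOB (-0.45 ± 0.11), APOH (-0.44 ± 0.10) and RBP4, which carries retinol (-0.32 ± 0.08). HP was at 2.24, 2.96 and 3.28 CPM against 4.19, 4.78 and 5.00 CPM, a low level in all libraries. HPX was not called without H2, H3 or L2, APOH without H1, H2 or L3, and RBP4 when any 1 library except L2 was left out (edgeR adjusted p up to 0.11, 0.104 and 0.115). APOB was not called without H1, H2, H3 or L2 (up to 0.256).

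The largest fall among genes at 5 CPM or more was LEFTY1 (ENSG00000243709, chromosome 1, 225886282 to 225911382), a secreted antagonist of Nodal. It was at 13.1, 16.0 and 12.9 CPM at 500 µg/mL, 19.2, 21.8 and 18.8 CPM at 100 µg/mL and 23.9, 27.8 and 19.0 CPM at 20 µg/mL. The libraries at 500 µg/mL were the lowest of the 9, those at 100 and 20 µg/mL overlapped, and the fall was -0.75 ± 0.12 (edgeR adjusted p = 8.71e-05). LEFTY1 has a close copy, LEFTY2, with which its reads could be shared, and the adjusted p was 0.0622 in the fit of 6 libraries. TP53INP2, a regulator of autophagy, was at 31.2, 28.6 and 32.2 CPM against 46.1, 40.2 and 39.5 CPM and fell by 0.45 ± 0.06 (edgeR adjusted p = 2.55e-06). PDZK1, a scaffold of membrane transporters, fell by 0.63 ± 0.10, from 9.94, 10.8 and 10.7 CPM to 6.64, 6.80 and 6.96 CPM.

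GSTA2 fell by 0.68 ± 0.13 and GSTA1 fell by 0.53 ± 0.11. These glutathione transferases are near-identical copies whose reads the counting could split, so which of them changed is uncertain. RDH5, a retinol dehydrogenase, fell by 0.54 ± 0.12, and CYP3A5, which oxidises many drugs, fell by 0.31 ± 0.07. GSTA1 was not called without H3 or L2 (edgeR adjusted p up to 0.09), RDH5 without H2 or L2 (up to 0.105), and CYP3A5 when any 1 library except L2 was left out (up to 0.081). The 2 falls on the list of 8 PXR and CAR targets were CYP3A5 and GSTA1, while 0.653% of all genes tested fell. The transcription factor ZNF467 fell by 0.54 ± 0.11 and was not called without H1, H2 or L2 (edgeR adjusted p up to 0.0932), and the uncharacterised gene C2orf72 fell by 0.46 ± 0.08.

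**Figure D2:**
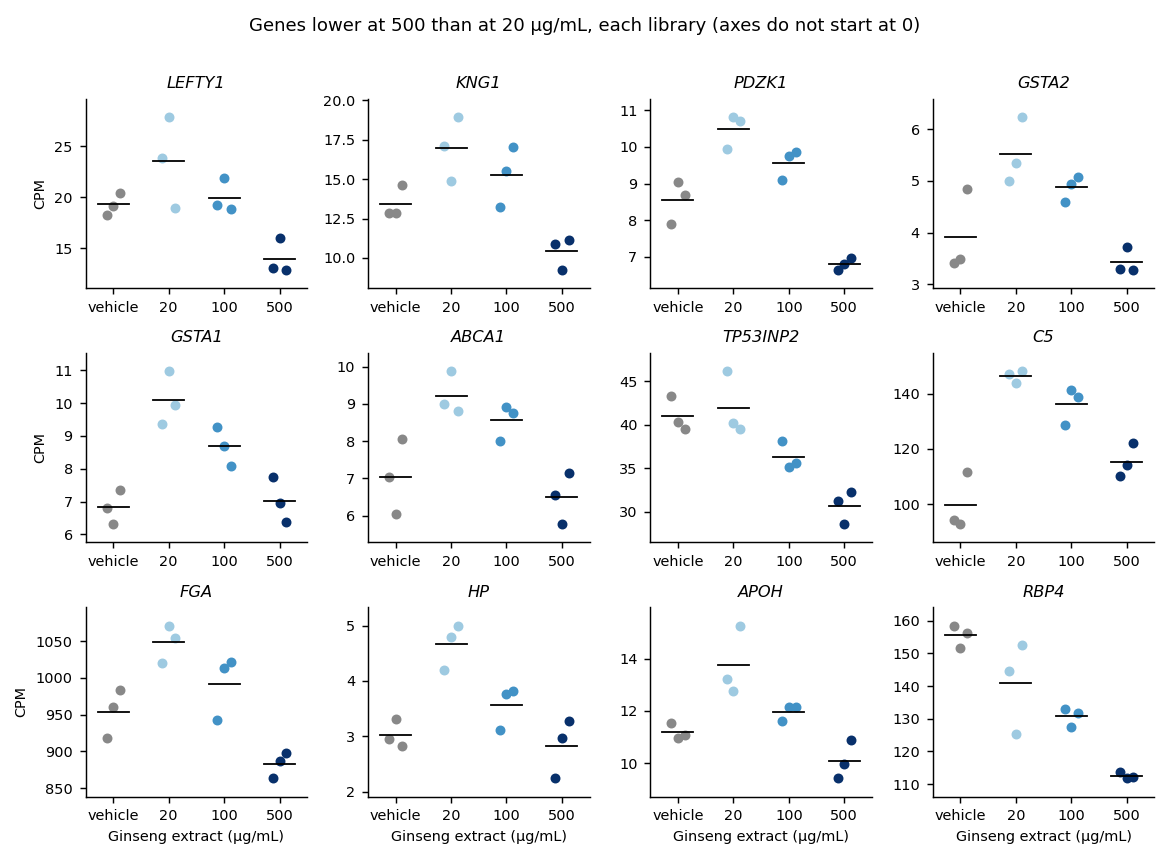
CPM of 12 genes that fell, in each library (points) with the group mean (line), for vehicle and for Ginseng extract at 20, 100 and 500 µg/mL, 3 libraries each. In all 12 panels the libraries at 500 µg/mL lie below those at 20 µg/mL, and the vehicle lies near the 500 µg/mL level for GSTA1 and HP and above it for RBP4 and TP53INP2.

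Among the rises outside lipid metabolism, NID1 and ALDOC were the only 2 at 5 CPM or more to reach 1.5-fold. NID1 (ENSG00000116962, chromosome 1, 235975830 to 236065162), nidogen, which links laminin and collagen IV in basement membranes, was at 16.5, 13.8 and 15.0 CPM at 500 µg/mL, 14.3, 11.9 and 13.0 CPM at 100 µg/mL and 9.80, 9.57 and 10.6 CPM at 20 µg/mL. The libraries at 20 µg/mL were below all others, those at 100 and 500 µg/mL overlapped, and the rise was 0.60 ± 0.09 (edgeR adjusted p = 7.68e-05). ALDOC (ENSG00000109107, chromosome 17, 28573115 to 28577264), a glycolytic aldolase, was at 24.4, 23.3 and 21.3 CPM at 500 µg/mL, 16.2, 16.4 and 17.5 CPM at 100 µg/mL and 17.1, 13.9 and 14.7 CPM at 20 µg/mL. Here the libraries at 500 µg/mL stood above the other 6, which overlapped, and the rise was 0.60 ± 0.10 (edgeR adjusted p = 0.000206). ANGPTL4, a secreted inhibitor of lipoprotein lipase, was at 54.1, 60.1 and 57.1 CPM against 43.2, 43.9 and 41.1 CPM and rose by 0.42 ± 0.07.

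On the basement membrane list 2 of 18 rose, NID1 among them, and the laminin chain LAMB2 fell (-0.20 ± 0.05). LAMB2 was not called without H1, H2 or L2 (edgeR adjusted p up to 0.172). On the glycolysis and hypoxia list 2 of 24 rose, ALDOC and the phosphofructokinase PFKP (0.16 ± 0.04), with a median of 0.06 and 19 of the 24 values positive. Over all 17764 genes tested 0.552% rose, 0.653% fell and 9221 values were positive. The PFKP call was lost without H1, H2, L2 or L3 (edgeR adjusted p up to 0.188). SERPINE2, a protease inhibitor, rose by 0.53 ± 0.08, and PI3, an elastase inhibitor, by 0.58 ± 0.12, a call lost without L2 (edgeR adjusted p = 0.128). The other large rises, OLFML2A (0.55 ± 0.13), CCDC150 (0.49 ± 0.12), the small GTPase RRAD (0.41 ± 0.11) and the phosphatase DUSP5 (0.38 ± 0.09), each lost their call without 2 or more libraries. OLFML2A was not called without H1 or L3, CCDC150 when any 1 library except H3 was left out, RRAD without H1, H2, L2 or L3, and DUSP5 without H1, H2 or L2 (edgeR adjusted p up to 0.154, 0.258, 0.378 and 0.105).

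Signalling and stress lists had few calls each, all but 1 of them rises. Of all genes tested, 0.552% rose and 0.653% fell. Of 26 NF-kB genes tested, 4 rose, with a median of 0.20 on the log2 scale. NFKB2, the p100 subunit of the non-canonical pathway, was at 51.4, 55.5 and 51.0 CPM at 500 µg/mL, 41.3, 41.7 and 40.5 CPM at 100 µg/mL and 44.7, 40.5 and 39.3 CPM at 20 µg/mL, and rose by 0.35 ± 0.06 (edgeR adjusted p = 0.000374). Of the 9 Ginseng libraries those at 500 µg/mL stood above the other 6, and the vehicle libraries were at that upper level, at 53.5, 55.4 and 53.2 CPM. BIRC3, an inhibitor of apoptosis, rose by 0.30 ± 0.06, the cytokine LIF by 0.25 ± 0.06 and the acute-phase gene SAA1, which has the close copy SAA2, by 0.27 ± 0.07. LIF lost its call without H1, H2 or L3 and SAA1 when any 1 library except L1 was left out (edgeR adjusted p up to 0.087 and 0.139). The chemokine CXCL8 changed by 0.50 ± 0.16 at 1.98 against 1.39 CPM and did not pass.

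Of 27 ATF4 targets 4 rose, with a median of 0.08. The shares over all genes tested were 0.552% for rises and 0.653% for falls. STC2, a secreted glycoprotein, was at 33.7, 34.4 and 36.4 CPM against 26.2, 28.9 and 28.2 CPM without overlap and rose by 0.32 ± 0.06. ASNS, asparagine synthetase, rose by 0.24 ± 0.05, ATF4 itself by 0.19 ± 0.05 and CHAC1, which degrades glutathione, by 0.55 ± 0.15. ASNS lost its call without H3, L1 or L2, ATF4 when any 1 library except L3 was left out and CHAC1 when any 1 library except L1 was left out (edgeR adjusted p up to 0.0899, 0.414 and 0.271). The stress effectors DDIT3 (0.02 ± 0.11) and ATF3 (-0.07 ± 0.24) did not pass. Of 18 endoplasmic reticulum genes 1 fell, XBP1, the transcription factor of the unfolded protein response (-0.20 ± 0.04). Of 22 MAP kinase feedback and output genes 3 rose, with a median of 0.11: DUSP5, the ETS factor ETV4 (0.32 ± 0.07) and the growth factor EREG (0.25 ± 0.06). ETV4 lost its call without H2 or L2 and EREG when any 1 library except H3 or L3 was left out (edgeR adjusted p up to 0.0788 and 0.179).

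Cell cycle genes were on 2 lists. Of 24 G2/M genes 5 rose, against 0.552% of all genes tested. All 24 values were positive, against 9221 of all 17764 genes, with a median of 0.17, against 0.005 over all genes tested. BUB1, a kinase of the spindle checkpoint, was at 69.7, 67.3 and 69.8 CPM against 56.7, 57.2 and 65.8 CPM (0.20 ± 0.05). The other rises were KIF23 (0.20 ± 0.05), CDC20 (0.18 ± 0.05), CENPF (0.20 ± 0.05) and the cyclin gene CCNA2 (0.16 ± 0.04). None of the 5 was called in these fits of the 6 or the 9 libraries by dose alone, and the 5 became 0 without H1 or L1, 1 without H3 and 2 without H2 or L2. BUB1 lost its call without H1, H3, L1 or L2, KIF23 when any 1 library except L3 was left out, CDC20 without H1, H2, L1 or L3, CENPF without H1, H3, L1 or L3, and CCNA2 when any 1 library except L3 was left out (edgeR adjusted p up to 0.155, 0.227, 0.135, 0.251 and 0.441). Of 24 G1/S genes edgeR called 0 and DESeq2 1, with a median of 0.08 and 8 at an unadjusted p under 0.05. The share of all genes at that unadjusted p is not given here.

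**Figure D3:**
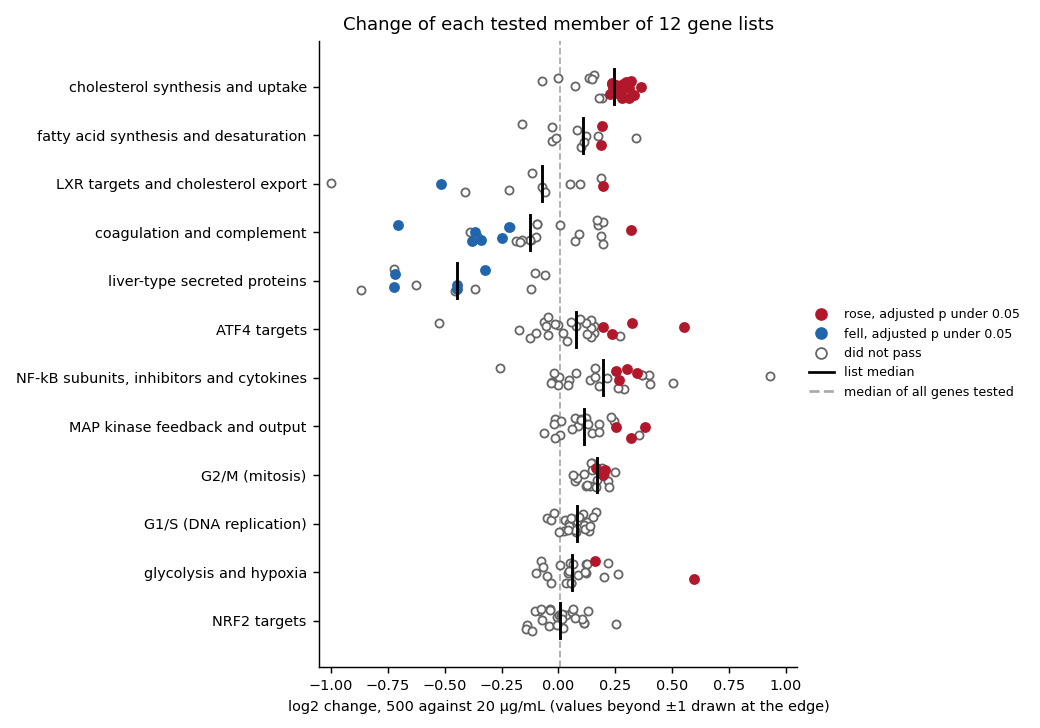
Log2 change between 20 and 500 µg/mL (horizontal axis) of each tested member of 12 gene lists (rows), filled where edgeR's adjusted p is under 0.05, with the list median as a black bar and the median of all genes tested as a dashed line. The cholesterol list has 16 filled points on the right, the coagulation and liver-type lists have 11 on the left, and ABCG1 of the LXR list, at -1.71 ± 1.34 on very few counts, is drawn at the edge.

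Lists for the responses to foreign compounds had few or no calls. Over all genes tested the shares were 0.552% for rises and 0.653% for falls. Of 26 NRF2 targets, the genes of the oxidative stress response, edgeR called 0, with a median of 0.01 (6 at an unadjusted p under 0.05; DESeq2 called 1 lower). EdgeR also called 0 of 12 amino acid transporters (3 at an unadjusted p under 0.05; DESeq2 called 1), 0 of 11 surfactant and mucin genes (2; DESeq2 called 0) and 0 of 6 markers of other cell types (1; DESeq2 called 0). For these unadjusted counts the share over all genes is not given here. Of 10 aryl hydrocarbon receptor targets 1 rose, CYP1B1 (0.15 ± 0.04), a call lost when any 1 library except H2 was left out (edgeR adjusted p up to 0.235). CYP1A1, the classic target of that receptor, had 4, 5 and 8 counts at 500 µg/mL and 2, 7 and 6 counts at 20 µg/mL, so that only a large change could have been seen. Of 16 glucocorticoid-responsive genes 1 rose, ANGPTL4, and 2 fell, KLF9 (-0.20 ± 0.05) and TSC22D3 (-0.13 ± 0.04). KLF9 lost its call without H2, H3, L1 or L2, and TSC22D3 when any 1 of the 6 libraries was left out (edgeR adjusted p up to 0.174 and 0.27). The adhesion gene CDH1, E-cadherin, was the only epithelial marker called, at 153, 152 and 153 CPM against 174, 167 and 173 CPM (-0.16 ± 0.04). On the list of 19 TGF-beta and epithelial-mesenchymal transition genes, CDH1 was the 1 fall, and 1 gene rose. On the Nodal, BMP and Wnt list of 16, LEFTY1 fell and ID3, an inhibitor of bHLH factors, rose (0.25 ± 0.07), a call lost when any 1 library except L1 was left out (edgeR adjusted p up to 0.336).

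For 201 of the 214 genes the mean at 100 µg/mL lay between those at 20 and 500 µg/mL, against 42.1% of all genes tested. Genes called for a gap between the outer doses are more likely to show this order, so the count is a description. The comparison of 500 with 100 µg/mL, which shares the 500 µg/mL libraries with the main one, called 49 genes (0.276%), 29 higher and 20 lower. That of 100 with 20 µg/mL called 0 (0% of genes tested; 554 of 17764 genes at an unadjusted p under 0.05), while DESeq2 called 3. If no gene differed, a share of 0.05 of the genes would be expected under that unadjusted value, so the 554 are no sign of further changes. The 49 became 10 without H1, 22 without H2, 17 without M2 and 12 without M3. For the cholesterol list the median change was 0.06 from 20 to 100 µg/mL and 0.19 from 100 to 500 µg/mL. For the liver-type list it was -0.23 and -0.24. ALDOC changed by 0.14 and 0.46 over these steps and NFKB2 by -0.01 and 0.36, whereas NID1 changed by 0.39 and 0.21 and HP by -0.39 and -0.33.

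The vehicle does not sit at one end of this dose series. Its mean lay between the 20 and 500 µg/mL means for 116 of the 214 genes, against 17.1% of all genes tested. Because the 214 were called for a gap between these means, any other group is more likely to fall inside it. The count of 116 is therefore a description. Of the 98 rises, the vehicle was at or below the 20 µg/mL mean for 33 and above the 500 µg/mL mean for 15. Of the 116 falls, it was at or above the 20 µg/mL mean for 17 and below the 500 µg/mL mean for 33. No dose was tested against the vehicle here. On the cholesterol list the vehicle mean lay below the 500 µg/mL mean for 18 of 25. The share of all genes for which it did so is not given here. The vehicle mean lay between the 20 and 500 µg/mL means for 13 of the 25, a description too, since many members were called for that gap. ACAT2 (36.1, 39.5 and 41.0 CPM) and SQLE (162, 169 and 167 CPM) were near their 20 µg/mL level in the vehicle. EBP (101, 99.5 and 91.1 CPM) and NSDHL (64.2, 70.1 and 67.9 CPM) were near their 500 µg/mL level in the vehicle.

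The extract of Poria Cocos, a fungus, offers a comparison at the same doses with no library in common. It called 275 of the 17764 genes tested between 20 and 500 µg/mL, 189 of them higher (1.06%). With both extracts 63 genes were called, all in the same direction. They are 29.4% of the Ginseng calls and 22.9% of the Poria calls, while 1.2% of all genes tested were called with Ginseng. The cholesterol list rose in 10 of 25 with Poria, with a median of 0.19. FDPS (0.20 ± 0.04), SQLE (0.22 ± 0.04), INSIG1 (0.26 ± 0.04) and DHCR7 (0.31 ± 0.05) rose with Poria too. A test of the difference between the 2 extracts in their 500 against 20 change called 2 genes (0.0113%; DESeq2 called 7), and 0 of the cholesterol list. At an unadjusted p under 0.05 there were 925 of 17764, where a share of 0.05 would be expected if no gene differed.

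Those 2 genes were NID1 and ID3. With Poria NID1 was at 11.8, 10.4 and 10.2 CPM against 11.5, 10.9 and 12.1 CPM, so its groups overlapped, and the rise with Ginseng was larger by 0.69 ± 0.13 (edgeR adjusted p = 0.0402 for the difference). ID3 was at 127, 119 and 120 CPM against 110, 94.8 and 103 CPM with Ginseng and at 102, 98.1 and 103 CPM against 104, 121 and 132 CPM with Poria, a difference of 0.49 ± 0.09 (edgeR adjusted p = 0.0402). The count of 2 became 0 without H1, H3 or L2, and 1 without H2 or L1.

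The extract of Glycyrrhizae Radix, licorice, changed many more genes at the same doses, with 3295 genes higher (18.5%) and 3273 lower (18.4%). The 500 against 20 change differed between Ginseng and Glycyrrhizae for 3738 genes (21%), among them 161 of the 214 Ginseng calls. Of the 214, 181 were also called with Glycyrrhizae (84.6% of the Ginseng calls and 2.76% of the 6568 Glycyrrhizae calls), 149 in the same direction and 32 in the opposite one. The cholesterol list split with Glycyrrhizae, with 8 higher, 9 lower and a median of -0.08. By the test of the difference, 14 of the 25 changed more positively with Ginseng and 3 more negatively. HMGCS1 fell by 0.72 ± 0.05 with Glycyrrhizae, a difference of 0.96 ± 0.07 (edgeR adjusted p = 1.55e-14), and ACAT2 fell by 0.51 ± 0.06, a difference of 0.87 ± 0.08 (edgeR adjusted p = 1.36e-12).

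The falls in plasma proteins ran the same way with licorice and further. The liver-type list had a median of -1.37 with Glycyrrhizae, and KNG1 fell by 2.40 ± 0.12 and LEFTY1 fell by 3.34 ± 0.16, each more than with Ginseng by the test of the difference (1.69 ± 0.16 and 2.59 ± 0.20; edgeR adjusted p = 1.8e-11 and 6.89e-14). ABCA1, in contrast, changed by -0.18 ± 0.09 with Glycyrrhizae without passing, and its difference from Ginseng was -0.34 ± 0.13 (edgeR adjusted p = 0.0504). BIRC3 rose with Ginseng and changed by -0.02 ± 0.06 with Glycyrrhizae, a difference of 0.32 ± 0.08 (edgeR adjusted p = 0.00227). Of the ATF4 targets, 25 rose with Glycyrrhizae, against 18.5% of all genes tested, and 4 with Ginseng, against 0.552%. The change differed for 24 of 27, against 21% of all genes.

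**Figure D4:**
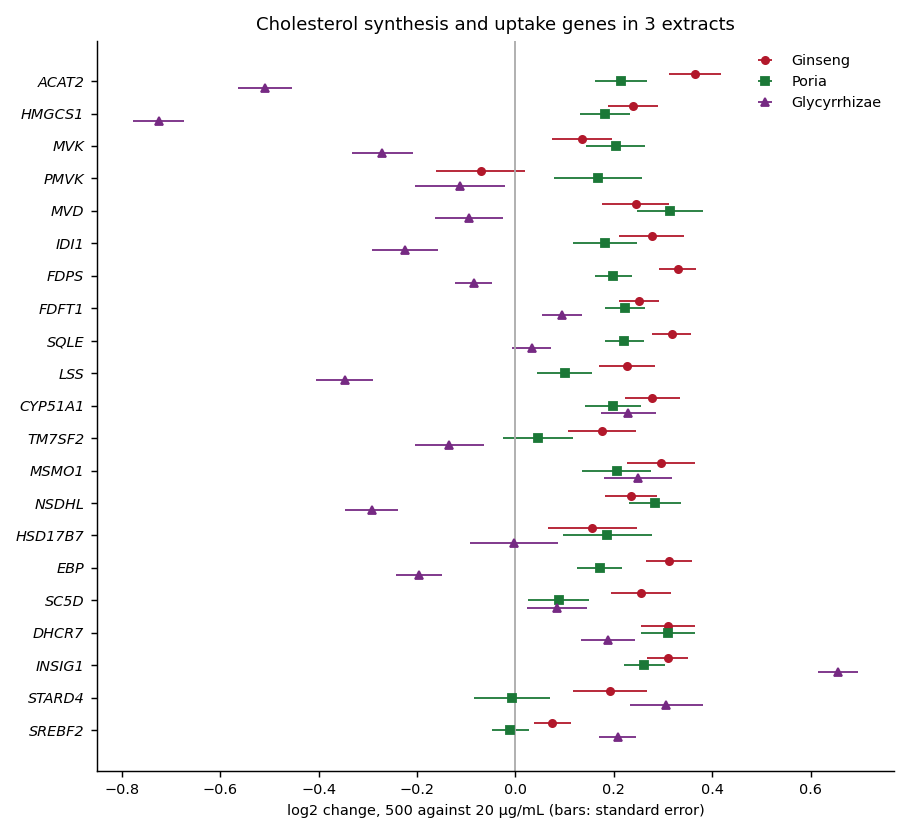
Log2 change between 20 and 500 µg/mL (horizontal axis, with SE) of 21 genes of the cholesterol list for Ginseng (circles), Poria (squares) and Glycyrrhizae (triangles). Ginseng and Poria values lie between -0.07 and 0.36, with 0 of the list differing between them by test, and Glycyrrhizae values run from -0.72 for HMGCS1 to 0.66 for INSIG1.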

How the data were processed

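Messenger RNA was sequenced from A549 cells. Per the submitters' processing notes, FastQC 0.11.9, Trim Galore 0.6.5, STAR 2.7.3a and RSEM 1.3.3 were used with the GRCh38 genome. Which annotation release and strand setting were used is not given in the sources used here. Expected counts were deposited by the authors for 60675 identifiers in 270 columns, of which 210 belong to no library of this series and were not used. Of the values above 0, 76% were whole within 1e-09, and all were rounded. Symbols were found for 41209 identifiers in the gene name tables and GENCODE 29, which also gave GRCh38 positions.

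Genes with low counts were removed (filterByExpr of edgeR 4.0.16, R 4.3.3), TMM factors scaled the libraries, and a mean for each group was fitted over all 60 (35 residual degrees of freedom, biological coefficient of variation 5.59%). Contrasts used the quasi-likelihood test of edgeR, with p-values adjusted by Benjamini-Hochberg over 17764 genes at 0.05, and differences between extracts as contrasts of contrasts. The SE of a change is its absolute log2 value over the square root of its F statistic. The fit was tested on simulated data. Alternatives were RLE size factors, DESeq2 1.42.0, no filter, the 6 or 9 Ginseng libraries alone, a replicate block and leaving out each library.

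The members and the 23 gene lists were chosen with earlier results of these data known. Named genes are the cholesterol list, the 10 largest rises and 10 largest falls at 5 CPM or more, up to 4 called members of every other list, and 5 fixed genes (79 in all, 69 of them called), of which some are not reported here. FGG, FGB, CFI, APOB, CCNA2, PLG, C4BPA, FASN, CXCL8, DDIT3, ATF3 and ABCG1 lie outside this rule: they were picked with their values in view. Promoter sequences are RefSeq's on GRCh38.p14.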

Additional observations from a re-analysis of the deposited data

Results flagged for a closer look

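The 500 against 20 µg/mL change differed by test between Ginseng and another extract at the gene level. Against Glycyrrhizae 3738 genes differed and against Poria 2 did. Against Poria these were NID1, with a log2 difference of 0.69, and ID3, with 0.49. Against Glycyrrhizae, 14 of the named genes rose with Ginseng and fell with Glycyrrhizae, each past the threshold in both extracts and in the test of the difference. On the cholesterol list the log2 differences included 0.96 for HMGCS1, 0.87 for ACAT2, 0.57 for LSS, 0.53 for NSDHL, 0.51 for EBP and 0.50 for IDI1. Outside it they were 1.49 for RRAD, 1.26 for PI3, 1.00 for ID3, 0.82 for SAA1, 0.49 for FADS2, 0.45 for CENPF and 0.36 for BUB1.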

How the results depend on the processing

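Between 500 and 20 µg/mL, 214 genes were called. Fitting only the 6 compared libraries gave 21 (9 higher, 12 lower, 5 on the cholesterol list) and the 9 Ginseng libraries 54 (20 higher, 34 lower, 10 on the cholesterol list). Leaving out 1 library gave 94 to 245 calls, 42 to 110 higher and 52 to 135 lower, with 11 to 15 on the cholesterol list. RLE size factors, DESeq2 and no filter stayed within 1.5 times (220, 232 and 254). Same-numbered libraries are not stated to share a culture or day, and their deviations from the group means correlated at 0.03 to 0.10 between 500 and 20 µg/mL, so the numbers were not taken as pairs, although each library correlated best with its own number. With the replicate block over all libraries 334 genes were called (161 higher, 173 lower), among them all 214. With the block over the 9 Ginseng libraries alone 208 were called (99 higher, 109 lower, 16 on the cholesterol list and 5 on the G2/M list), 159 of them among the 214. The biological coefficient of variation with the block was 3.59% over all libraries, against 5.59% without it. Over the 9 it was 4.03% against 5.71%, so calls without the block also depend on leaving the numbers out.

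For 500 against 100 µg/mL the 49 calls became 134 with no filter, 95 with the replicate block and 10 to 45 without 1 library. For 100 against 20 µg/mL the 0 became 44 with no filter, 3 with DESeq2, and 0 to 2 without 1 library. For the difference from Poria the 2 became 79 with no filter, 7 with DESeq2, 10 with the replicate block and 0 to 2 without 1 library. For the difference from Glycyrrhizae no alternative moved the 3738 beyond 1.5 times. Of the 69 named genes called, 12 were called in the fit of 6 libraries, 32 in that of 9, 59 in that of 9 with the replicate block and 29 whichever 1 library was left out, and none changed sign past the threshold in any alternative. The libraries of the other extracts were not left out in turn, and the cause of these differences was not tested. Depth limits genes of a few counts per library, such as CYP1A1.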
